A study of Homo sapiens with 10 samples.

Results

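The genes described here are the potassium channel genes of IMR90 cells, a normal human lung fibroblast line, in senescent and in proliferating cultures. A gene was taken when a probe set of the array carried a single gene symbol that began with KCN, or was ABCC8 or ABCC9, which encode the sulfonylurea receptors that some potassium channels need. This gave 99 genes on 191 probe sets, out of 19775 genes with such a probe set in all. The genes were chosen by symbol, and their measured log2 values were used to divide them into genes with signal in a state and genes near background in both. Senescent cells were at 90 population doublings, passaged until growth stopped and then held for 2 weeks, and were hybridised to 5 arrays. Proliferating cells of the same line were at 28 population doublings and were hybridised to another 5. Both were grown in 3% oxygen and 10% serum without any knockdown or drug named in the labels, so growth state and passage number differ together. Values are the deposited log2 values of Affymetrix probe sets, and 1 unit is a 2-fold difference. The labels do not say that the 5 arrays of a state came from separate cultures, so the spread behind each p-value may be technical.

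Potassium channels let potassium leave or enter a cell along its gradient and so set the resting membrane potential, which also bears on cell volume, calcium entry and passage through the cell cycle. Their pore subunits fall into inward rectifiers (KCNJ), K2P leak channels (KCNK), calcium- or sodium-activated channels (KCNMA, KCNN, KCNT and their relative KCNU1) and voltage-gated channels (KCNA to KCND, KCNF to KCNH, KCNQ, KCNS and KCNV). Auxiliary subunits (KCNE, KCNAB, KCNIP, KCNMB) and sulfonylurea receptors change how a pore opens or where it sits. Fibroblasts are known to carry large-conductance calcium-activated and inward rectifier currents.

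Array medians lay between 3.05 and 3.12, and arrays correlated at 0.993 to 0.998 within a state and at 0.930 to 0.939 between states over the tested genes. The labels held on the genes that define the states, with LMNB1 at 5.42 ± 0.36 in senescent and 10.93 ± 0.09 in proliferating cells, CDKN2A at 7.63 ± 0.18 and 4.43 ± 0.96, and CCNA2 at 8.98 ± 0.22 and 11.83 ± 0.11 (SD, n = 5 each). All 11 fibroblast markers listed were measured, while 1 of 5 endothelial, 0 of 3 leukocyte, 3 of 5 epithelial and 2 of 5 neuronal markers on the array were. The ACTB control's 3' minus 5' signal, a sign of RNA integrity, was 2.32 ± 0.10 in senescent and 2.07 ± 0.14 in proliferating cells (SD, n = 5 each), a difference of 0.25 with an exact two-sided permutation p = 0.00794. The GAPDH control's 3' minus 5' signal was 0.12 ± 0.09 in senescent and -0.03 ± 0.18 in proliferating cells (SD, n = 5 each). Its difference of 0.15 had an exact two-sided permutation p = 0.135. The fit was repeated with the ACTB control as a covariate, and named genes whose call or fold changed clearly are given with that value. The ACTB control ranged from 2.24 to 2.47 on senescent and from 1.85 to 2.19 on proliferating arrays, without overlap. A call lost with this covariate therefore cannot tell RNA integrity from growth state.

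Most of the family lay near background in these cells by the split used here. A gene was counted as measured in a state when its brightest probe set lay above the array's 60th percentile (4.64 to 4.77) on at least 3 of the 5 arrays. This left 12 measured genes, of which 7 were measured in both states, 1 in senescent cells only and 4 in proliferating cells only. KCNJ2 counted as measured in both states only through proliferating 5, at 4.764 against a percentile of 4.763. With the 50th or the 70th percentile in place of the 60th, 25 or 7 genes were measured. The other 87 were near background in both states, with means of 1.46 to 4.55 in senescent cells and 1.45 to 4.22 in proliferating cells, and 83 of them lay under the percentile on all 10 arrays. Thus 12.1% of the family was measured, beside 50.9% of all genes. By role, 3 of 13 inward rectifiers, 1 of 2 sulfonylurea receptors, 2 of 14 K2P channels, 1 of 7 calcium- or sodium-activated pores, 2 of 35 voltage-gated pores, 2 of 16 auxiliary subunits and 1 of 12 RNA genes and others were measured. Just inside the split lay KCNS3, ABCC9 and KCNQ1OT1, whose deciding array stood 0.55, 0.67 and 0.87 above the percentile in the brighter state. Just outside lay KCNJ6, KCND2 and KCNU1, whose deciding array stood at -0.18, -0.30 and -0.59 in senescent cells, their brighter state.

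**Figure D1:**
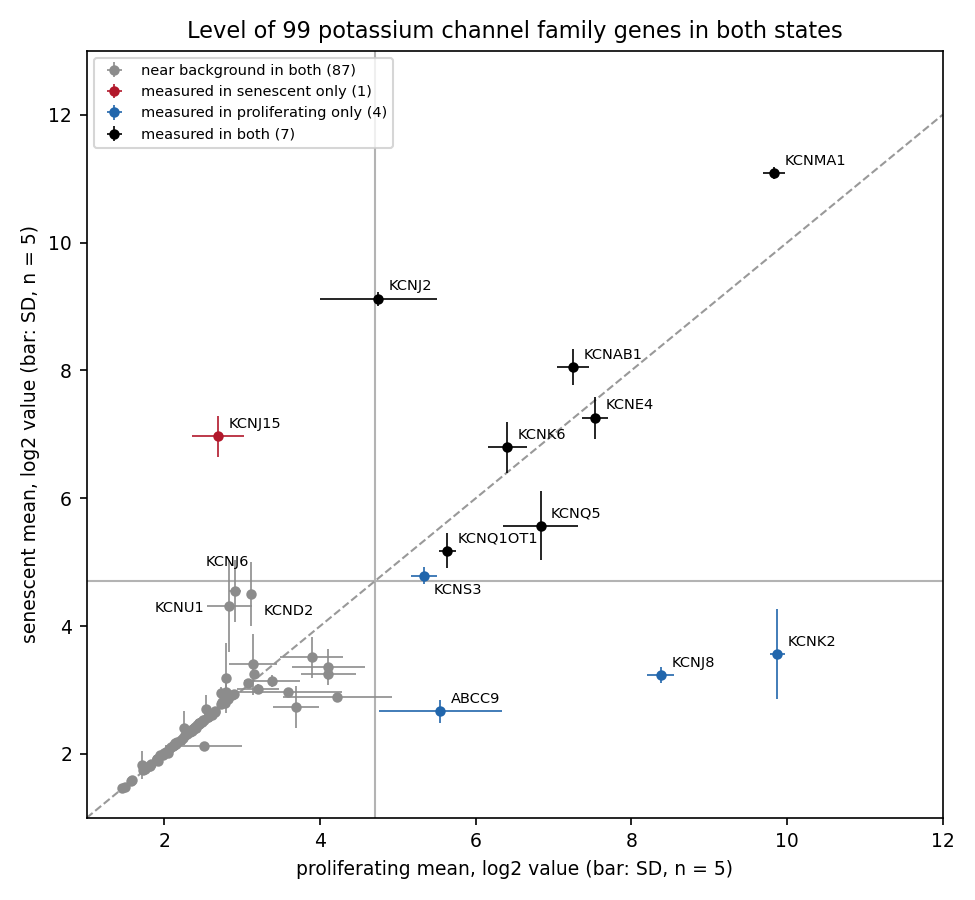
Mean log2 value in senescent cells (vertical axis) against proliferating cells (horizontal axis) for the 99 genes, with SD bars over 5 arrays. Grey lines mark the middle of the arrays' 60th percentiles and the dashed line marks equal values. Most of the 87 genes near background crowd along the diagonal at the lower left. Among these genes KCNJ6, KCND2 and KCNU1 lie above the diagonal and KCNK1 lies below it. KCNJ8, KCNK2 and ABCC9 sit far below the diagonal, and KCNJ2 and KCNJ15 far above.

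The difference between the states was tested with limma over the 12909 genes that passed a filter on low values, which 37 of the 99 family genes did. Of these 37, 9 were higher and 10 lower in senescent cells at an adjusted p under 0.05, which is 51.4%, beside 61.3% of all tested genes. Over all tested genes 31% were called higher and 30.3% lower. With a difference of at least 1 on the log2 scale, 6 were higher and 5 lower, which is 29.7% of the family's tested genes, beside 20.3% of all tested genes (10% higher and 10.2% lower). The 5 senescent values lay apart from the 5 proliferating values for 21 of the 37 (56.8%), beside 51.8% of all. The median difference was 0.05 for the family and 0.04 for all tested genes, and the median size of the difference was 0.41 and 0.37. With the ACTB control as a covariate 7 were higher and 7 lower, beside 49.4% called among all genes. When arrays were centred on housekeeping genes, which moved the median of all genes by -0.11, 7 were higher and 14 lower, so that 33.3% of the family's calls were higher in place of 47.4%, and 40.5% of all calls in place of 50.6%. The family was selected for description with results of this comparison known, and a gene measured in only 1 state had to differ between states, so nothing further is read from these counts or from the p-values of those genes.

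**Figure D2:**
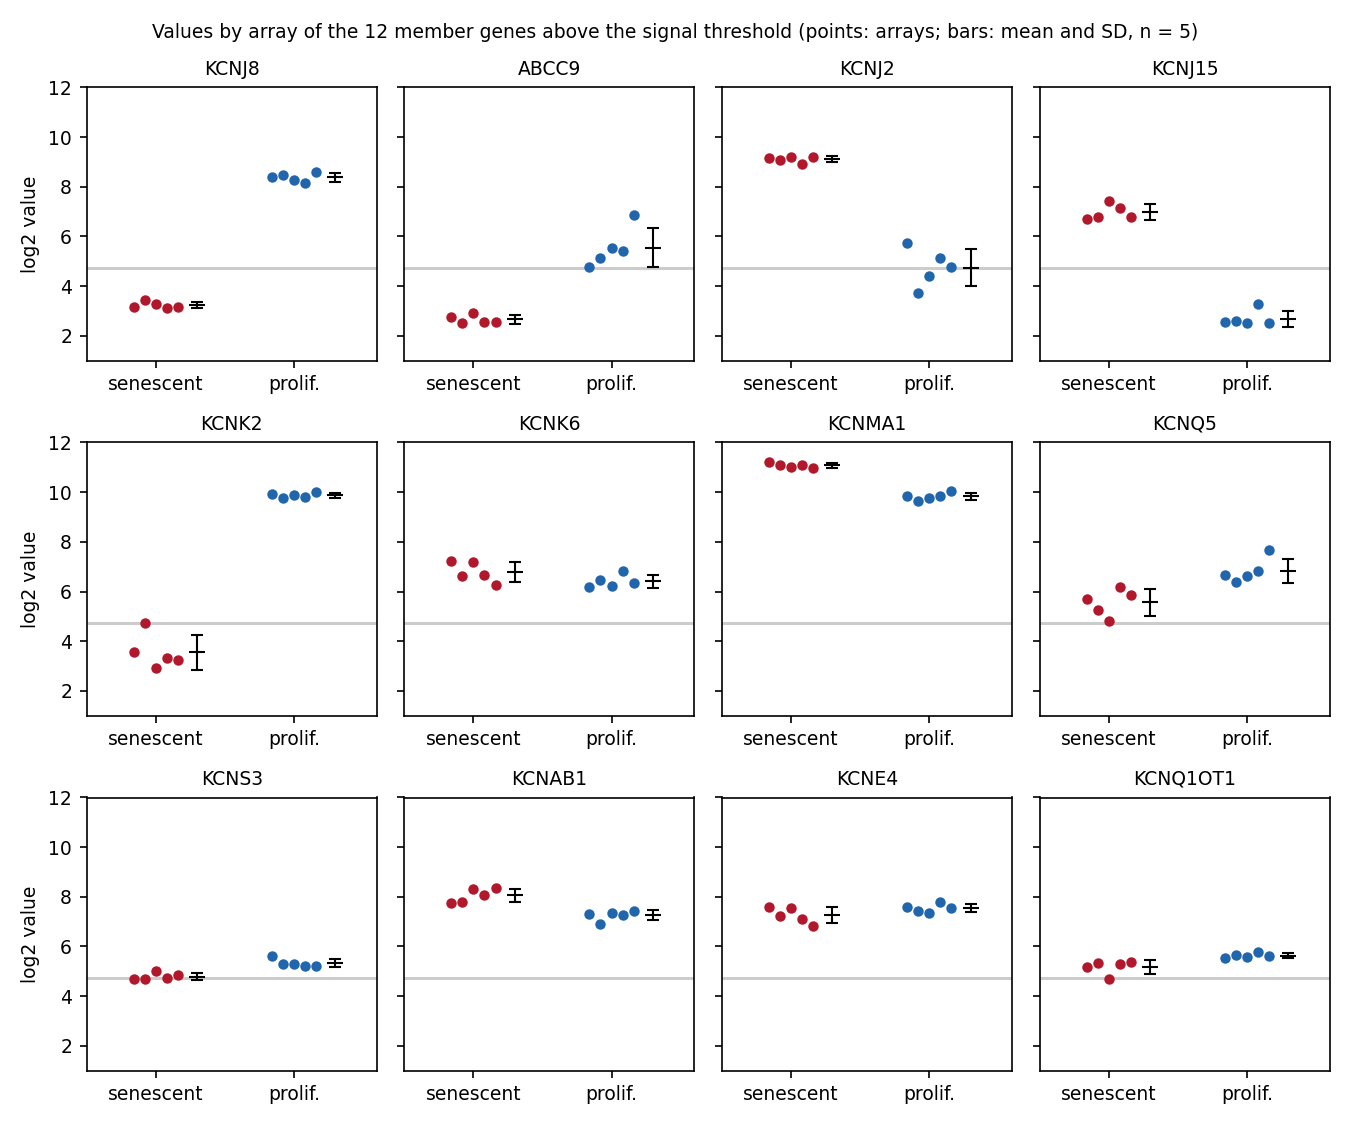
Log2 value (vertical axis) on each of the 5 senescent (red, left) and 5 proliferating (blue, right) arrays for the 12 measured genes, with mean and SD as bars and the arrays' 60th percentiles as a grey band. The groups overlap for KCNK6 and KCNE4 and lie apart for the other 10 genes.

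RNA signal for both subunit genes of one ATP-sensitive channel, KCNJ8 and ABCC9, was lower in senescent cells. KCNJ8 encodes Kir6.1, the inward rectifier pore of this channel. The log2 values of KCNJ8 were 3.18, 3.44, 3.27, 3.12 and 3.15 on the senescent arrays 1 to 5, against 8.40, 8.47, 8.27, 8.15 and 8.60 on the proliferating arrays. All senescent arrays were thus near background and all proliferating arrays well above it. KCNJ8 fell by 5.14 (SE 0.09, limma's adjusted p = 4.6e-11), and with the 60th percentile as the floor of the senescent signal it was at least 12.7-fold lower. Its other probe set gave 2.50 ± 0.26 in senescent and 6.98 ± 0.24 in proliferating cells (SD, n = 5 each), a difference of -4.48.

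ABCC9 encodes SUR2, the sulfonylurea receptor that assembles with Kir6.1 in smooth muscle and pericytes. It stood at 2.77, 2.51, 2.93, 2.54 and 2.58 on the senescent arrays, against 4.78, 5.14, 5.55, 5.40 and 6.86 on the proliferating arrays. The groups did not overlap, and proliferating 5 was the highest array. Senescent 2, 4 and 5 also lay under the filter's percentile, so ABCC9 was tested through its proliferating signal. ABCC9 fell by 2.88 (SE 0.33, limma's adjusted p = 2.4e-05), or at least 1.78-fold against the same floor. Of its 5 probe sets, only this one was above the percentile in proliferating cells. Another, near background in both states, differed by -1.09. The remaining 3, also near background, differed by -0.05 to 0.03. The mean over the ABCC9 probe sets that passed the filter fell by 1.00 with limma's adjusted p = 8.8e-05. The pancreatic and neuronal counterparts, the pore gene KCNJ11 (Kir6.2) and the receptor gene ABCC8 (SUR1), had no signal to compare. KCNJ11 was at 1.92 ± 0.02 in senescent and 1.90 ± 0.01 in proliferating cells, and ABCC8 at 1.99 ± 0.01 and 1.98 ± 0.01 (SD, n = 5 each), and neither passed the filter.

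KCNJ8 and ABCC9 are also pericyte markers, so the other smooth muscle and pericyte markers are given beside them. Of 10 listed, 9 were tested, 4 higher and 3 lower in senescent cells (77.8% called, beside 61.3% of all tested genes), and the log2 of their summed signal ranged from 14.26 to 14.40 on senescent and from 13.88 to 14.17 on proliferating arrays. RGS5 (1.93), MCAM (1.19), TAGLN (0.41) and ACTA2 (0.31) were higher and NOTCH3 (-1.28), MYH11 (-0.72) and CSPG4 (-0.58) lower. ACTA2 and TAGLN were the brightest of the list, so they weigh most in the sum. The muscle filament gene DES was near background in both states at 2.66 ± 0.02 and 2.83 ± 0.16 (SD, n = 5 each). The part of these markers in the KCNJ8 and ABCC9 differences was not tested. In bulk RNA, fewer cells of a kind and less RNA per cell cannot be told apart.

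A pair of inward rectifiers went the opposite way. KCNJ2 encodes Kir2.1, the strong inward rectifier that holds the resting potential of muscle and other cells near the potassium equilibrium. On senescent arrays it read 9.17, 9.09, 9.21, 8.94 and 9.19, against 5.73, 3.73, 4.40, 5.12 and 4.76 on proliferating arrays, where the values straddled the percentile and spread over 2 units. KCNJ2 rose by 4.37 (SE 0.31, limma's adjusted p = 6.1e-07), which is 20.7-fold on the deposited scale, on its only probe set, and by 3.70 with the ACTB covariate (limma's adjusted p = 4.9e-05). KCNJ15 encodes Kir4.2, an inward rectifier best known from kidney. It was at 6.70, 6.78, 7.44, 7.16 and 6.77 on senescent arrays, against 2.54, 2.59, 2.51, 3.28 and 2.51 on proliferating arrays, all of them near background. Apart from proliferating 4, these also lay under the filter's percentile, so KCNJ15 was tested through its senescent signal. The rise was 4.29 (SE 0.19, limma's adjusted p = 1.9e-08), or at least 4.67-fold against the floor. A further KCNJ15 probe set, near background in both states by the split, rose by 1.81. The other 3, also near background, differed by 0.02 to 0.18. The mean over the KCNJ15 probe sets that passed the filter rose by 2.09 (limma's adjusted p = 1.6e-08).

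Neighbouring genes were compared because both subunits of the ATP-sensitive channel are encoded next to each other on chromosome 12. In the order of protein-coding genes 11 pairs of the family are neighbours, and 3 of these pairs had a measured member. KCNJ8 and ABCC9 both fell. KCNJ6, the gene of the G-protein-activated inward rectifier GIRK2, lies beside KCNJ15 on chromosome 21 and read 3.94, 4.82, 4.31, 5.20 and 4.47 on senescent arrays, against 2.88, 2.86, 2.92, 3.04 and 2.85 on proliferating arrays. It rose by 1.64 (SE 0.20, limma's adjusted p = 4.0e-05) on a probe set just under the split in senescent cells, while its other probe set differed by 0.12 with limma's adjusted p = 0.14 when probe sets marked as shared were left out. KCNJ16, beside KCNJ2 on chromosome 17, was near background and differed by 0.06, which did not pass, and the antisense RNA gene KCNJ2-AS1, also near background, was at 2.95 ± 0.10 in senescent and 2.73 ± 0.06 in proliferating cells (SD, n = 5 each).

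The 250 bases before the start of these genes are shown for the pair that fell together and for the pair of measured inward rectifiers that rose, so that the sequence next to each start can be set beside the direction of its gene. They come from RefSeq with build GRCh38.p14, whose table held 76 of the 99 genes, and are written 5' to 3' on the gene's strand. Capitals mark matches, on either strand, to the TATA box spelled TATAAA, the CCAAT box, the GC box spelled GGGCGG, the AP-1 motif spelled TGANTCA, the E-box spelled CACGTG or the cyclic AMP response element spelled TGACGTCA. Matches to the GC box can overlap each other.
KCNJ8: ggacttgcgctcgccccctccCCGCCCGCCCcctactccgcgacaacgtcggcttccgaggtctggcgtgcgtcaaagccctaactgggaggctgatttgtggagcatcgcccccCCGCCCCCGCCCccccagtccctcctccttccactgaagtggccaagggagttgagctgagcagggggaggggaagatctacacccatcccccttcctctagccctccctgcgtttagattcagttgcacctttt
ABCC9: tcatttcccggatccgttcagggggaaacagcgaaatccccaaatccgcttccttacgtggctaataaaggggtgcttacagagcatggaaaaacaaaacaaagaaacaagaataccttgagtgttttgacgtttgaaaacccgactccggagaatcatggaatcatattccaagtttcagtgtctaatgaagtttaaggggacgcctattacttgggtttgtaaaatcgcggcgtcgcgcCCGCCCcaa
KCNJ2: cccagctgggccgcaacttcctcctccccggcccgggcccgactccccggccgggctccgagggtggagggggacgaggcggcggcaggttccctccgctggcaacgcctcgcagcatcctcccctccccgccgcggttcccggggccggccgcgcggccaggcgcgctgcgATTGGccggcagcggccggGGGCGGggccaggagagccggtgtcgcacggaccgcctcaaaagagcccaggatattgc
KCNJ15: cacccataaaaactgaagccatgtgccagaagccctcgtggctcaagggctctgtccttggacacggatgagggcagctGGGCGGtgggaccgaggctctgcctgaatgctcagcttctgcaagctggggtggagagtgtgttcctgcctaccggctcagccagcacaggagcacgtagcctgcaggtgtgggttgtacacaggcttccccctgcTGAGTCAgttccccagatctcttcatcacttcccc
The windows are chr12:21774707-21774956 (minus strand) for KCNJ8, chr12:21941427-21941676 (minus strand) for ABCC9, chr17:70169282-70169531 (plus strand) for KCNJ2 and chr21:38272258-38272507 (plus strand) for KCNJ15. GC boxes numbered 4 in KCNJ8 and 1 each in ABCC9, KCNJ2 and KCNJ15, and 42.6% of all 35116 promoter windows hold at least 1. KCNJ2 also holds 1 CCAAT box, found in 32% of windows, and KCNJ15 holds 1 AP-1 match, found in 6.57%. TATAAA (10.7% of windows), CACGTG (6.34%) and TGACGTCA (1.65%) matched in none of the 4. The share of G and C was 64.8% for KCNJ8, 46% for ABCC9, 77.6% for KCNJ2 and 60% for KCNJ15, with 15, 15, 32 and 6 CpG dinucleotides, beside medians of 58% and 11 over all windows. A match describes letters and is not a binding site.

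Among K2P leak channels, which conduct at rest, KCNK2 showed the largest difference of the 99 genes. KCNK2 encodes TREK-1, a leak channel opened by membrane stretch and by arachidonic acid. Senescent arrays gave 3.58, 4.75, 2.92, 3.31 and 3.23, against 9.92, 9.76, 9.88, 9.81 and 10.00 on proliferating arrays. Only senescent 2 reached the percentile, and every proliferating array was far above it. On its only probe set KCNK2 fell by 6.31 (SE 0.29, limma's adjusted p = 2.5e-08), and with the 60th percentile as the floor of the senescent signal it was at least 35.6-fold lower. KCNK6, the gene of TWIK-2, was at 7.22, 6.63, 7.18, 6.68 and 6.26 in senescent cells, against 6.18, 6.45, 6.22, 6.82 and 6.36 in proliferating cells. These groups overlapped, and the difference of 0.39 (SE 0.19) had limma's adjusted p = 0.11. It passed without senescent 5 (0.52, limma's adjusted p = 0.027) and with array weights (0.47, limma's adjusted p = 0.048), and was 0.19 with the ACTB covariate (limma's adjusted p = 0.64). KCNK1, the gene of TWIK-1, named after its values were seen, lay near background and was at 2.89 ± 0.07 in senescent and 4.22 ± 0.70 in proliferating cells (SD, n = 5 each), a difference of -1.32 (limma's adjusted p = 0.0022).

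KCNMA1 encodes the pore of the BK channel, a large-conductance channel opened by calcium and voltage. It read 11.23, 11.09, 11.03, 11.08 and 10.98 on senescent arrays, against 9.85, 9.64, 9.78, 9.85 and 10.04 on proliferating arrays. The groups lay about 1 unit apart with little spread within either. KCNMA1 rose by 1.25 (SE 0.07, limma's adjusted p = 1.8e-07), which is 2.38-fold, and a second probe set with high signal rose by 1.47. Both of these are marked as shared between transcripts. Of its other probe sets, both near background, the brighter differed by 0.35, which did not pass when shared sets were left out (limma's adjusted p = 0.052), and the mean over its probe sets rose by 0.78 (limma's adjusted p = 4.0e-07). No BK auxiliary subunit gene (KCNMB1 to KCNMB4) was measured in either state. KCNU1, the relative of KCNMA1 known from sperm, read 3.38, 4.11, 4.78, 5.25 and 4.05 in senescent cells, against 3.02, 2.40, 3.17, 2.76 and 2.82 in proliferating cells. Its rise of 1.48 (SE 0.31, limma's adjusted p = 0.0020) lay just under the split and did not pass with the ACTB covariate (1.21, limma's adjusted p = 0.069).

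Of 35 voltage-gated pore genes only KCNQ5 and KCNS3 were measured. KCNQ5 encodes Kv7.5, a slowly gating channel that contributes to the M current and to smooth muscle tone. It read 5.72, 5.27, 4.81, 6.20 and 5.84 on senescent arrays, against 6.66, 6.39, 6.61, 6.84 and 7.66 on proliferating arrays. The highest senescent array stood just under the lowest proliferating one, and proliferating 5 was again the highest. KCNQ5 fell by 1.26 (SE 0.29, limma's adjusted p = 0.0036), and by 1.02 with the ACTB covariate, where it did not pass (limma's adjusted p = 0.096). Its other probe set, near background, differed by -0.78. KCNS3 encodes Kv9.3, a silent subunit that modifies Kv2 channels. On senescent arrays it was at 4.70, 4.69, 5.01, 4.71 and 4.84, against 5.62, 5.29, 5.30, 5.23 and 5.21 on proliferating arrays, so senescent values lay about at the percentile and proliferating values a little above it. KCNS3 fell by 0.54 (SE 0.09, limma's adjusted p = 5.0e-04). KCND2, the gene of the A-type channel Kv4.2, lay just outside the split at 4.13, 4.64, 5.29, 4.43 and 4.02 in senescent cells, against 3.05, 3.17, 3.07, 3.13 and 3.11 in proliferating cells, and rose by 1.39 (SE 0.21, limma's adjusted p = 1.7e-04).

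Of 16 auxiliary subunit genes 2 were measured, KCNAB1 and KCNE4, and both differed by less than 1 on their brightest probe set. KCNAB1 encodes the beta subunit Kvbeta1, which binds Kv1 channels inside the cell and can speed their inactivation. It was at 7.76, 7.80, 8.31, 8.06 and 8.35 on senescent arrays, against 7.30, 6.90, 7.37, 7.27 and 7.41 on proliferating arrays, without overlap. KCNAB1 rose by 0.80 (SE 0.14, limma's adjusted p = 5.9e-04), and by 0.58 with the ACTB covariate (limma's adjusted p = 0.041). A second measured probe set rose by 1.13. Both are marked as shared, its remaining unshared set lay near background at a difference of 0.04 (limma's adjusted p = 0.36), and the mean over its probe sets rose by 0.48 (limma's adjusted p = 3.5e-06). None of the Kv1 pore genes among the 99 (KCNA1, KCNA3 to KCNA7 and KCNA10) was measured in either state. KCNE4, whose product damps KCNQ1 and some Kv1 channels, read 7.59, 7.21, 7.57, 7.09 and 6.83 in senescent cells, against 7.58, 7.43, 7.35, 7.78 and 7.54 in proliferating cells. The groups overlapped and the difference of -0.28 (SE 0.15) had limma's adjusted p = 0.14. It was -0.38 and passed as the mean of its 3 probe sets (limma's adjusted p = 0.034), passed at -0.39 with housekeeping centring (limma's adjusted p = 0.046), and was -0.54 with the ACTB covariate (limma's adjusted p = 0.061) and -0.17 without senescent 5 (limma's adjusted p = 0.29).

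KCNQ1OT1 is not a channel gene. It is a long noncoding RNA, transcribed antisense within KCNQ1 from the paternal allele, that silences neighbouring imprinted genes. It read 5.19, 5.33, 4.70, 5.31 and 5.37 on senescent arrays, against 5.52, 5.66, 5.56, 5.80 and 5.63 on proliferating arrays. The groups did not overlap, with senescent 3 lowest. KCNQ1OT1 fell by 0.45 (SE 0.12, limma's adjusted p = 0.0084), but by 0.18 with the ACTB covariate, which did not pass (limma's adjusted p = 0.39). A second probe set differed by -0.94 and 3 lay near background with differences of 0.00 to 0.01, and the mean of the 2 tested sets fell by 0.70 (limma's adjusted p = 6.5e-04). KCNQ1 itself was near background in both states.

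**Figure D3:**
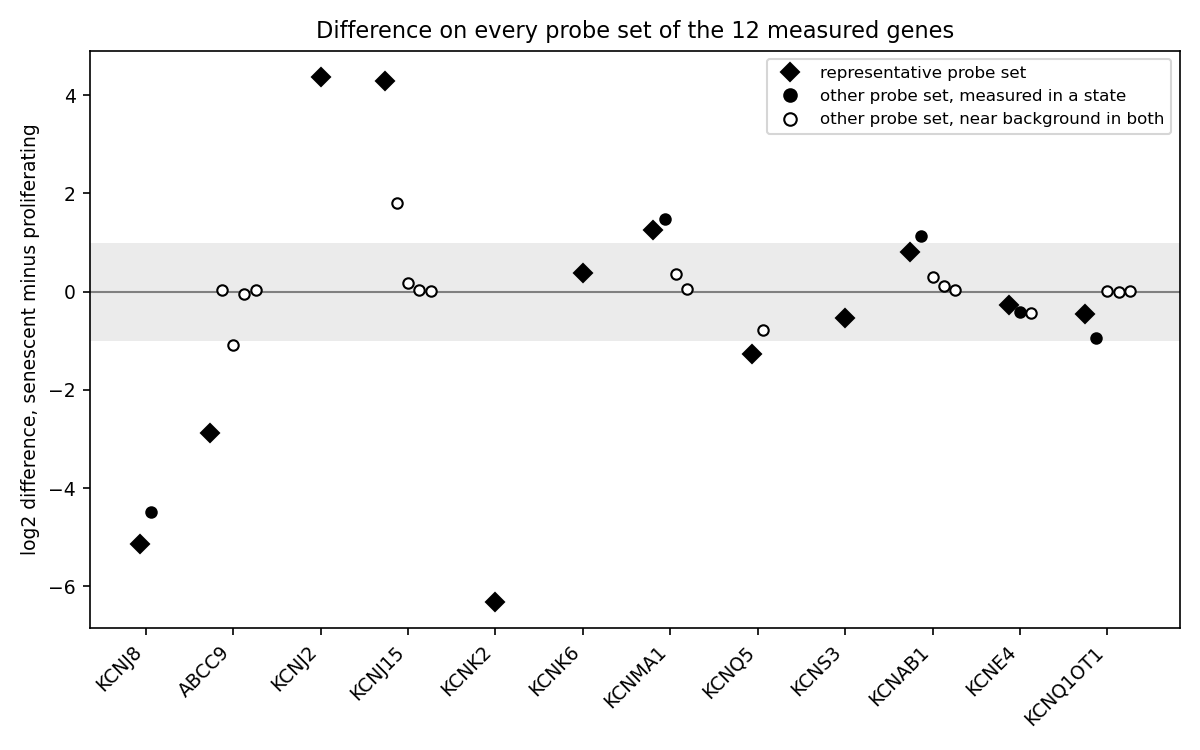
Log2 difference, senescent minus proliferating (vertical axis), on every probe set of the 12 measured genes. Diamonds are the probe sets that represent a gene, filled circles other probe sets measured in a state and open circles those near background in both, and the grey band spans differences under 1. Second measured probe sets of KCNJ8, KCNMA1, KCNAB1, KCNE4 and KCNQ1OT1 lie on the same side of 0 as the first, and all open circles lie inside the band except 1 of KCNJ15 (1.81) and 1 of ABCC9 (-1.09).

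The exact two-sided permutation p was 0.00794, the smallest that 5 against 5 arrays allow, for each of the 10 measured genes that passed limma's test. It was 0.119 for KCNK6 and 0.143 for KCNE4. For KCNJ8, ABCC9, KCNK2, KCNS3 and KCNJ15, measured in only 1 state, the split already required a difference, so nothing is read from their p. Among the 87 genes near background 25 were tested. Of these 5 were called higher (KCNJ6, KCND2, KCNU1, KCND3 and KCNJ2-AS1) and 4 lower (KCNK1, KCNIP4, KCNRG and KCNG1), several of them named after their values were seen, which is 9 of 25, beside 61.3% called among all tested genes. KCND3 and KCNJ2-AS1 differed by 0.10 and 0.22 and were not called with housekeeping centring, and KCNIP4 and KCND3 were not called with the ACTB covariate. KCND3 also lost its call when any of senescent 2 to 5 or proliferating 2, 4 or 5 was left out, with a replicate block and with array weights. KCNIP4, KCNRG and KCNG1 differed by -0.75, -0.85 and -0.95. The 62 untested genes differed by -0.38 to 0.17.

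Other genes that move ions or hold channels in place were taken as lists, fixed with earlier results of these data known. Of the sodium and potassium pump list, 3 of the 11 genes with a single-symbol probe set were tested (66.7% called, beside 61.3% of all tested genes). No gene of the sodium pump's alpha subunit was among the 11. The beta subunit gene ATP1B3 rose by 0.35 and the regulator gene FXYD5 fell by 0.93. Among potassium cotransporters and their kinases 9 of 12 were tested, 3 higher and 3 lower (66.7% called, beside 61.3% of all tested genes), with a median of -0.12. WNK4, a kinase that regulates these cotransporters, fell by 3.41 and was near background in senescent cells, the cotransporter gene SLC12A4 (KCC1) rose by 0.98 and SLC12A7 (KCC4) fell by 0.83. None of 7 hyperpolarisation- or nucleotide-gated channel genes was measured or tested, and HCN3 was furthest with a difference of 0.42.

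Channel partners and regulators were tested for 14 of 22 genes on the array, 8 higher and 3 lower (78.6% called, beside 61.3% of all tested genes), with a median of 0.24, beside 0.04 for all. AMIGO1, whose product accompanies Kv2 channels, rose by 4.06, to 7.98 ± 0.16 in senescent cells, against 3.92 ± 0.22 in proliferating cells (SD, n = 5 each, limma's adjusted p = 7.8e-10). The ankyrin genes ANK2 and ANK3, which tether channels and transporters to the membrane skeleton, were near background in proliferating cells, as was AMIGO1. ANK2 ranged from 4.44 to 6.26 in senescent and from 2.36 to 2.49 in proliferating cells, where it lay under the filter's percentile on every array, so it was tested only through its senescent signal. ANK3 rose by 2.59 (limma's adjusted p = 3.2e-06). Voltage-gated calcium channel genes were tested for 8 of 17, with the subunit gene CACNA2D1 higher by 1.26 and the pore gene CACNA1A lower (-0.56), which is 25% called, beside 61.3% of all tested genes, and a median of -0.02.

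Sodium channel genes were tested for 9 of 13, 5 higher and none lower (55.6% called, beside 61.3% of all tested genes). Their median was 0.44, beside 31% higher and a median of 0.04 among all tested genes. SCN7A, near background in both states, differed by -0.58 and was not called (limma's adjusted p = 0.17). NALCN, the sodium leak channel that counters potassium leak at rest, rose by 2.71 to 6.99 ± 0.30 in senescent cells, against 4.28 ± 0.62 in proliferating cells (SD, n = 5 each, limma's adjusted p = 1.1e-05), where 1 of 5 arrays reached the percentile. SCN4B, a beta subunit gene near background in proliferating cells, rose by 2.18 and the pore gene SCN3A by 1.64 (limma's adjusted p = 6.3e-06 and 1.5e-06).

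**Figure D4:**
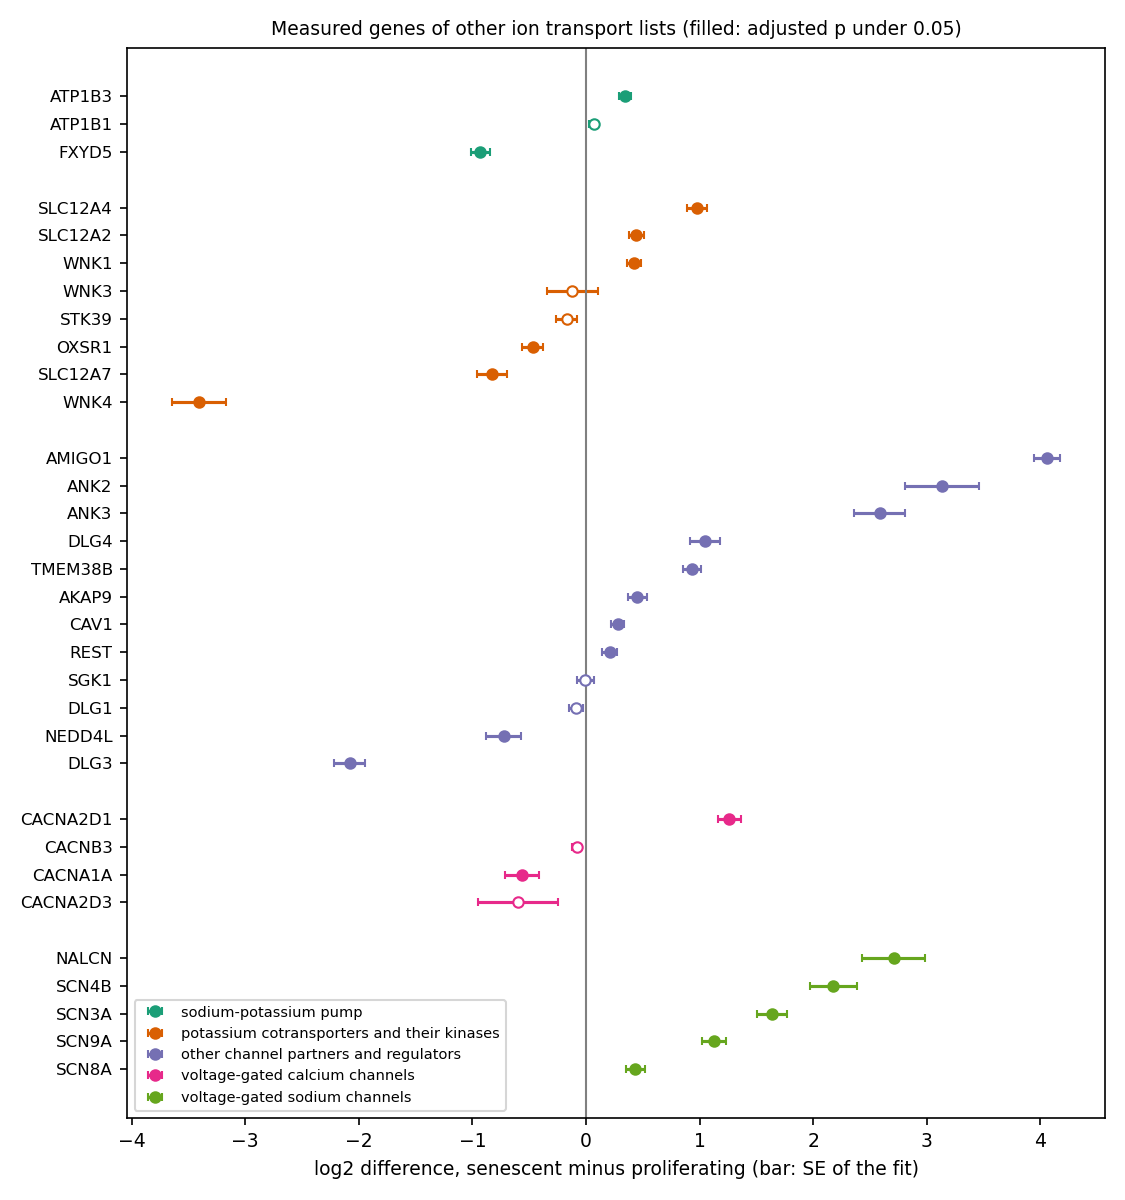
Log2 difference, senescent minus proliferating (horizontal axis, bars are the SE of the fit), for tested genes of 5 ion transport lists that were measured in at least 1 state. Filled points passed limma's adjusted threshold. All 5 sodium channel points lie right of 0, while SCN7A (-0.58), tested but near background in both states, is not drawn. AMIGO1 (4.06) and WNK4 (-3.41) are the outermost points.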

How the data were processed

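Total RNA was labelled with biotin and hybridised to Affymetrix arrays, per the labels' protocols. The deposited values are log2 values, 1 per probe set and array, and GCRMA and Partek appear, without version or role, per the submitters' processing notes. The log2 base was read from the values. Settings, detection calls and scan batches were not analysed here. Of 54675 probe sets, 62 were controls, 41091 had 1 symbol, 1801 several and 11721 none. Symbols came from the platform's annotation and were updated through gene identifiers (41037 of 41091, and 99 of 99 genes here) in RefSeq GRCh38.p14, which otherwise served for gene order and promoters.

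Probe sets entered the test when 5 or more of the 10 arrays read them above the array's 40th percentile, and the one with the highest mean over all arrays represented a gene. Senescent minus proliferating means went into limma 3.58.1 (lmFit and eBayes, two-sided, R 4.3.3) over 12909 genes, Benjamini-Hochberg threshold 0.05, a script tested on simulated data. Exact permutation tests used every assignment of 5 against 5 arrays. Fold bounds set the dimmer state's values to at least the 60th percentile of their array.

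Members, lists and tests were chosen with earlier results of these data known. Named were KCNJ8, KCNJ11, ABCC8, ABCC9, all measured genes, 3 genes on each side of the split and up to 3 called genes per list. Lists were the sodium-potassium pump, cotransporters, channel partners, nucleotide-gated, calcium and sodium channels, housekeeping genes, which served for centring (25 tested, 5 higher, 11 lower), and markers of fibroblasts (3 of 11 higher, 4 lower), smooth muscle and pericytes, endothelium (1 of 1 tested higher), leukocytes (0 of 1 called), epithelium (3 of 3 lower) and neurons (0 of 4 higher, 1 lower). Alternatives changed the filter, normalisation, model, probe sets and arrays. Figures used Python 3.11.15 and matplotlib 3.10.9. No arrays held identical values.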

Additional observations from a re-analysis of the deposited data

Results flagged for a closer look

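Among 34 groups of 5 arrays (17 named genes in both states), 4 had an array far from the other 4 by Dixon's test, where chance marks about 1 in 20. KCNJ15 was at 3.28 on proliferating 4, against 2.51 to 2.59 on the other proliferating arrays. KCNAB1 was at 6.90 on proliferating 2, against 7.27 to 7.41 on the others. KCNQ1OT1 stood at 4.70 on senescent 3, against 5.19 to 5.37. KCNS3 stood at 5.62 on proliferating 1, against 5.21 to 5.30. Leaving out the array in question kept the call of each of these 4 genes.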

How the results depend on the processing

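KCNJ11 and ABCC8, which failed the filter, were not run under alternatives. Over 21 alternatives, the differences of KCNJ8, ABCC9, KCNJ2, KCNK2, KCNJ15, KCNS3 and, where tested, KCND2 kept their direction and their call, and none of the 15 named genes that were tested changed direction. Over these 15 genes 302 values kept direction and call, 6 lost a call and 4 gained one. These changes are given with KCNMA1, KCNQ5, KCNAB1, KCNQ1OT1, KCNJ6, KCNU1, KCNE4 and KCNK6. Without shared probe sets KCNMA1, KCNAB1 and KCNJ6 were represented by probe sets near background, and why they lost the call was not tested. With a filter at the 60th percentile, which left 12 genes of the family to test, 4 were called higher, 3 of them by at least 1, and 6 lower. Measured genes numbered 25 with the 50th and 7 with the 70th percentile as the split. Leaving out 1 array in turn gave 8 to 9 genes higher and 10 to 11 lower. Same-numbered arrays of the 2 states deviated together little (correlations of -0.04 to 0.10, 0 of 5 over 0.1), which cannot exclude a weak pairing. With a replicate block 8 were higher and 11 lower. Without detection calls, signal near background limits the size of every difference that involves it.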
